A study of Homo sapiens with 4 samples.

Results

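The immediate early EGR, FOS and JUN genes are described here by their H3K27Ac peaks in MOLM13 cells, before and after Menin inhibition. The set was given as a list of names and holds EGR1, EGR2, EGR3, FOS, FOSB, FOSL2, JUN, JUNB, JUND and IER2. These are 10 of 20037 protein-coding genes. The rule that lists them uses no measured value, but the set was chosen with earlier results of these data known. H3K27Ac, histone H3 acetylated at a lysine of its tail, lies at active promoters and enhancers. MOLM13 is a human AML cell line of the monocytic lineage with MLL1-r, a rearrangement of the gene whose product binds Menin. Cells were exposed to 500 nM of SNDX-50469, a Menin inhibitor, or served as controls, and both conditions lasted 16 h. The label of the control gives no treatment, while the treatment description names a DMSO arm. There was 1 H3K27Ac ChIPmentation library per condition from this single cell line, and 2 input libraries were not used here. No difference below has a replicate check, and no p-value is given.

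Immediate early genes are transcribed within minutes of a growth factor, stress or differentiation signal, without a need for new protein. Their promoters are known targets of SRF, which binds the CArG box, and of CREB and ATF factors, which bind elements built on TGACG. FOS and JUN proteins pair into the AP-1 factor, which binds TGANTCA, and the EGR proteins are zinc finger factors that bind GC-rich DNA. EGR1, EGR2 and several AP-1 members are known to be induced as myeloid cells mature along the monocytic path.

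The promoters of several of the genes are printed first, because peaks over and near the starts are described below. Each stretch is the 250 bases before a RefSeq start site (GRCh38.p14), read in the direction of transcription, and it ends at the base before the start. Capitals mark a CArG box or TGACG on either strand, and TGANTCA would also have been capitalised. EGR1 lies at chr5:138465229-138465478 (plus strand), and EGR2 is shown at the most downstream of its listed starts, chr10:62816367-62816616 (minus strand). FOS lies at chr14:75278578-75278827 (plus strand) and FOSL2 at chr2:28392608-28392857 (plus strand).
EGR1: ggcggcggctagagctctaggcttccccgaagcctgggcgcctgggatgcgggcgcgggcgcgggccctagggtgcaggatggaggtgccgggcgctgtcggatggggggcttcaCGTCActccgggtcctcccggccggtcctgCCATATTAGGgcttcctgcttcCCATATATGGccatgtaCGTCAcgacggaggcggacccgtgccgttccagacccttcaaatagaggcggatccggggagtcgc
EGR2: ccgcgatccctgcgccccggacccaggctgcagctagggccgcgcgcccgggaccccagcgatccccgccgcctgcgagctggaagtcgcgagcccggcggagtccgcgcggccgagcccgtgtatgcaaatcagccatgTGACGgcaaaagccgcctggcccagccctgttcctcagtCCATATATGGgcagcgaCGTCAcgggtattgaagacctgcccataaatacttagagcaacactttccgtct
FOS: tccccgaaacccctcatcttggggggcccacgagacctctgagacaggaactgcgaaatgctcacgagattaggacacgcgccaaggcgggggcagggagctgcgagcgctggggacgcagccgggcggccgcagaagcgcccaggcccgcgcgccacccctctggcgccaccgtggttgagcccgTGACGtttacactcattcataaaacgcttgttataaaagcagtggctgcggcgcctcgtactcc
FOSL2: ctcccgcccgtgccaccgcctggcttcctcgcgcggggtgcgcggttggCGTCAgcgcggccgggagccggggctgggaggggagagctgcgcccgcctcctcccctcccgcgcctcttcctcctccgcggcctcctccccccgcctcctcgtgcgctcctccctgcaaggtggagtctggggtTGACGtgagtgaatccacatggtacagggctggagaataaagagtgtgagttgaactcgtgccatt

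The JUN family stretches were read in the same way. JUN lies at chr1:58784048-58784297 (minus strand), JUNB at chr19:12791236-12791485 (plus strand) and JUND at chr19:18281623-18281872 (minus strand).
JUN: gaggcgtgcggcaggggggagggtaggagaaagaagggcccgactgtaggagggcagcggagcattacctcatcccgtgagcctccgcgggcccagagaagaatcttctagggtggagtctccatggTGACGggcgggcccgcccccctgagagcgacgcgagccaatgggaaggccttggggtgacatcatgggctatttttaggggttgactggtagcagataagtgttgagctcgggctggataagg
JUNB: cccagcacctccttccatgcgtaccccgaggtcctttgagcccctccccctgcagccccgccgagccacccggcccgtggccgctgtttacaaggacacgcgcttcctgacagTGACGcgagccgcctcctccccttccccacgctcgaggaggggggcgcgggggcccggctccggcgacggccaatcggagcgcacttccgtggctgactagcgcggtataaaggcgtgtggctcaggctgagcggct
JUND: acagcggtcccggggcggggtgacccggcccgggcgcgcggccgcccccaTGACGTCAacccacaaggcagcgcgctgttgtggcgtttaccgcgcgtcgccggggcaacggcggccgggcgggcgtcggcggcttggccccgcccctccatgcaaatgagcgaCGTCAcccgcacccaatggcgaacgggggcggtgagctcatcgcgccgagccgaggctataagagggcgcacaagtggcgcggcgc

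The RefSeq promoter table matched 9 members, with 3 starts listed for EGR2. At the first listed start of these 9 genes, TGACG was found in 8 stretches, against 21.2% of 35097 stretches in the whole table. Counted back from the start site, the TGACG of FOS lay at -64 to -60 and that of JUN at -123 to -119. JUNB had a single TGACG at -137 to -133. JUND had overlapping matches from -200 to -193 that together spell the palindrome TGACGTCA. The CArG box was found in EGR1 alone among the first listed starts, against 1.16% of all stretches. EGR1 held a pair of CArG boxes, at -105 to -96 and at -83 to -74. The most downstream start of EGR2 held a CArG box at -71 to -62. The AP-1 motif TGANTCA was in 0 of the 9 stretches, against 6.57% of all. That pattern cannot match longer forms, such as the letters TGACATCA in the JUN stretch, so the count does not cover them. The Sp1 motif GGGCGG was in 7 of the 9 and 42.6% of all, CCAAT in 3 and 32.0%, and TATAAA in 3 and 10.7%. These matches are descriptions of letters in a short window. They do not show that a factor was bound there or elsewhere.

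The peak lists differed greatly in extent. The control list held 245875 peaks and the SNDX-50469 list 54061, and 9.71% of the control covered length was also covered after treatment. This last quantity is called the kept share below. The weakest peak in the control list had a −log10 p of 2.68 and that of the SNDX-50469 list 3.93, so a weak peak could enter only the control list. Read totals were not in the files, and the depth of either library is unknown. For this reason positions and covered lengths are compared between lists, and the fold of a peak over its background and its rank by fold are read within its own list only. By chromosome, covered length after treatment ranged from 6.91% to 39.6% of control. Chromosome 8, with EGR3, was at 39.6% and chromosome 19, with FOSB, JUNB, JUND and IER2, at 16.0%. The share of these differences in the values of those genes was not tested. All 9 markers of myeloid and MLL1-r cells had control peaks over the gene and 5 kb, among them CEBPA with 12601 bp and MPO with 15118 bp. Among markers of other cell types, ALB, KRT5 and MYOD1 had no peak, PAX5 had 253 bp and GATA1 324 bp, but the T cell gene CD3E had 9490 bp.

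Over each gene with flanks of 5 kb, every one of the 10 genes had a control peak, and the covered length was lower after SNDX-50469 at 10 of 10. Of 15634 coding genes with any control peak in that window, 98.1% were lower too, so this count is near the background. It also depends on the unequal lists: with the control list trimmed to its strongest peaks of the same total length as the treated list, EGR3 and FOSB had 2027 and 1109 bp treated against 0 bp in control, and EGR2 and JUN had 0 bp in both. Summed over the members, 89901 bp were covered in control and 27592 bp after treatment. Of the control length, 29.4% was kept, against 11.6% summed over all genes. For the trimmed list the share over all genes in this window is not given, so the whole lists serve as background. With the full control list 9.71% of its length was kept, against the 29.4% of these members. With the trimmed list 38.9% of its length was kept, against 45.8% for these members, so that gap is far smaller. The median member kept 16.3%, and the median gene 2.37%. The members ranged from 0% at EGR2 and JUN to 70.1% at JUNB. None of the control length was kept at 2 of 10 members and at 44.8% of all genes. At least 50% was kept at JUNB and JUND, 2 of 10 members, against 2.78% of all genes and 5.08% of the genes of chromosome 19. Of the 9 markers of myeloid and MLL1-r cells, 3 kept at least 50%. The median marker kept 18.5%, and 18.6% was kept in their sum, so high kept shares are not particular to the members. With only peaks of a −log10 q of at least 5 in either list, JUNB kept 0%, JUND 49.4% and IER2 58.0%, so the call at JUNB and JUND was lost and IER2 gained it. In sum the 4 members on chromosome 19 kept 43.5%, against 16.8% for all genes of that chromosome, and the other 6 members kept 16.3%, against 11.2% for all genes elsewhere. By family, the kept share of summed length was 14.2% for the EGR genes, 15.0% for the FOS genes and 61.4% for the JUN genes. The last value comes from JUNB and JUND, both on chromosome 19, since JUN gave 441 bp of the 20345 bp summed and kept none.

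**Figure D1:**
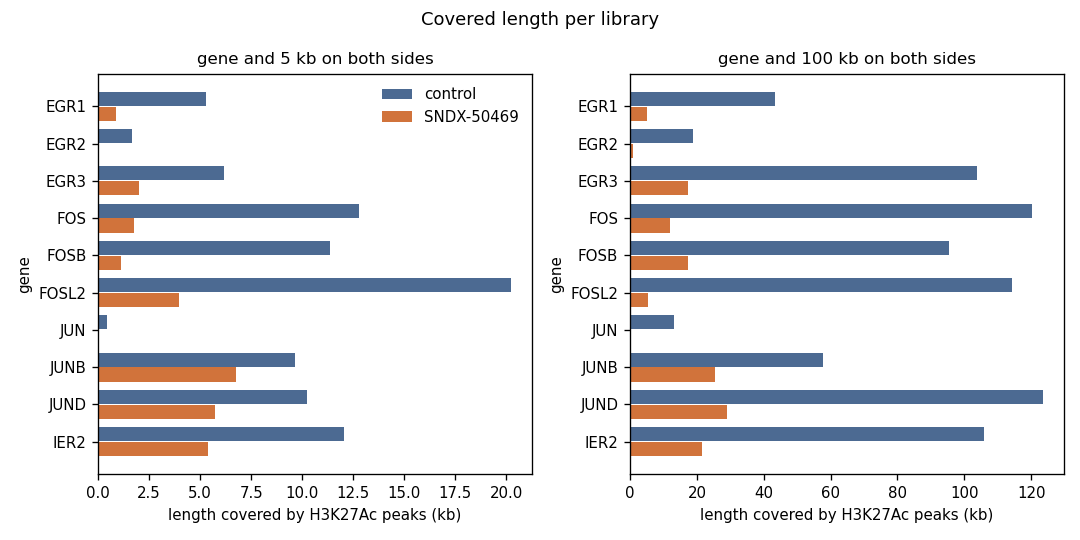
Length covered by H3K27Ac peaks (kb, horizontal axes) at each gene, in 1 control and 1 SNDX-50469 library, over the gene and 5 kb (left) and 100 kb (right) on both sides. Every treated bar is shorter than its control bar, and in the left panel EGR2 and JUN have no treated bar while JUNB keeps 6773 of 9656 bp.

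EGR1, the zinc finger factor at the head of the family (chr5:138465479-138469303, plus strand), had 3 control peaks that covered 5308 bp. Its strongest control peak ran from 2508 bp before to 792 bp after the 5′ end, with a fold of 7.31 over background and rank 1728 of the control list. After SNDX-50469 there was 1 peak of 866 bp, with a fold of 4.68 and rank 2754 of its list. That peak lay from 1209 to 344 bp before the 5′ end and inside the control peak. The printed promoter stretch with both CArG boxes was therefore under a peak over its full 250 bases in control and over 0 bases after treatment. The control peak of 5343 bp farther upstream, from 8507 to 3165 bp before the 5′ end, had no treated peak over it. The gene kept 16.3% of its control length.

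EGR2, a factor of myeloid and nerve sheath differentiation (chr10:62811996-62819167, minus strand), had 3 control peaks that covered 1642 bp and no treated peak. The longest, of 1310 bp, had a fold of 3.90 and rank 21331. It lay from 1352 to 2661 bp after the outermost 5′ end, just upstream of the most downstream RefSeq start. Of the 300 bases around that start, 111 were covered in control and 0 after treatment. The stretches around the other 2 starts were not covered in either list.

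EGR3, which resembles EGR1 and EGR2 in its zinc fingers (chr8:22687659-22693480, minus strand), had 4 control peaks with 6174 bp and 4 treated peaks with 2027 bp. Only 1001 bp were shared, so 1026 bp were covered after treatment alone. The upstream control peak of 5682 bp ended 397 bp before the 5′ end and had rank 34242, and a treated peak of 1390 bp lay inside it. The other 3 treated peaks, of 464, 171 and 391 bp, lay within or downstream of the gene and shared no base with the control list. They were the only treated peaks of the 21 over the 10 genes that shared no base with control. EGR3 lies on the chromosome with the highest ratio of treated to control length. No treated peak lay within 1 kb of its 5′ end, where control had 604 bp.

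FOS, the founding AP-1 partner of the JUN proteins (chr14:75278828-75282230, plus strand), lay inside a single control peak of 28490 bp. That peak ran from 3683 bp before to 24806 bp after the 5′ end, with a fold of 8.11 and rank 982. After treatment the gene and 5 kb held 3 peaks with 1737 bp in all, against 12784 bp in control, and 13.6% was kept. The peak over the start was 842 bp long, from 310 bp before to 531 bp after the 5′ end, and covered the printed promoter in full. The strongest treated peaks inside the long control peak were not at the gene. A treated peak of 3189 bp lay from 15816 to 19004 bp after the 5′ end, with a fold of 5.27 and rank 1306, and it was followed by peaks of 2166 and 1451 bp. The promoter peak had rank 5026 in the same list.

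FOSB, the FOS paralogue on chromosome 19 (chr19:45467996-45475179, plus strand), differed from FOS in that its 5′ end was under no peak in either list. The nearest control peaks ended 126 bp before it and began 276 bp after it. In control, 7 peaks covered 11349 bp, and the longest, 7023 bp, ran from 276 bp after the 5′ end to just past the gene. In the treated list 3 peaks covered 1109 bp, of which 937 bp were kept, or 8.26%. The strongest treated peak was 652 bp long and lay 10443 to 11094 bp after the 5′ end. It fell inside the strongest control peak, which lay downstream of the gene too. No treated peak lay within 1 kb of the 5′ end, where 1493 bp were covered in control.

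FOSL2, which encodes the AP-1 member FRA2 (chr2:28392858-28417317, plus strand), had the most control peaks. These were 18 peaks with 20251 bp, led by one of 13246 bp over the 5′ end with a fold of 6.49 and rank 3127. After treatment 4 peaks with 3974 bp were found, all inside that leading peak. The longest, 3272 bp, ran from 2250 bp before to 1021 bp after the 5′ end and had rank 2976. The other 17 control peaks, most of them in the gene body, had no treated peak over them. FOSL2 thus kept its whole start window and 19.6% of its length over the gene and 5 kb.

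JUN, the founding member of its family (chr1:58780791-58784047, minus strand), was nearly bare in both lists. Control had 3 peaks of 76, 281 and 84 bp, 441 bp in all, and the treated list had 0. The strongest of them had a fold of 2.69 and rank 199407 of 245875, which lies near the weakest value the control list holds. The printed JUN promoter was not under a peak in either condition. The kept share of 0% at JUN therefore rests on 441 bp.

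JUNB, a JUN relative that often opposes JUN (chr19:12791486-12793315, plus strand), stood at the other end. Its main control peak of 14369 bp ran from 10487 bp before to 3881 bp after the 5′ end, with a fold of 12.0 and rank 79. The treated list held 1 peak of 11613 bp over the same place, with a fold of 5.56 and rank 976, and 80.8% of the control peak was kept. That treated peak has a −log10 q of 4.87, so it is absent at a minimum of 5, where JUNB kept 0%. The treated peak ended 1772 bp after the 5′ end, so the lost part lay mainly at the 3′ side of the gene. HOOK2 has its 5′ end 864 bp from that of JUNB, and the signals of the 2 starts cannot be told apart.

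JUND, the JUN family member known for steady expression in resting cells (chr19:18279694-18281622, minus strand), had the strongest peaks of the 10 genes in both lists. A control peak of 5633 bp covered the gene and its start, with a fold of 12.6 and rank 57, and 89.1% of it was kept. A second control peak of 11081 bp lay from 13841 to 2761 bp before the 5′ end, with a fold of 13.4 and rank 33, and 64.0% of it was kept. The treated peak over the gene, of 5021 bp, had a fold of 6.48 and rank 443. Outside the 5 kb, a treated peak from 11929 to 7569 bp before the 5′ end had a fold of 8.32 and rank 83. In contrast, a control peak of 4069 bp on the 3′ side, with a fold of 6.47 and rank 3163, had no treated peak over it. That peak lay over the start of another gene, IQCN, 7170 bp from that of JUND.

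IER2, a small nuclear protein gene induced with FOS and JUN (chr19:13150411-13154911, plus strand), had a main control peak of 8590 bp with a fold of 11.3 and rank 124. After treatment 2 peaks with 5397 bp lay inside it, and 62.8% of that peak was kept. The longer treated peak, 4980 bp, ran from 720 bp before to 4259 bp after the 5′ end, with a fold of 5.97 and rank 689. The 3 upstream control peaks had no treated peak over them, and the gene with 5 kb kept 44.8%. STX10 starts 36 bp from IER2, so that a peak over the one start is a peak over the other.

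**Figure D2:**
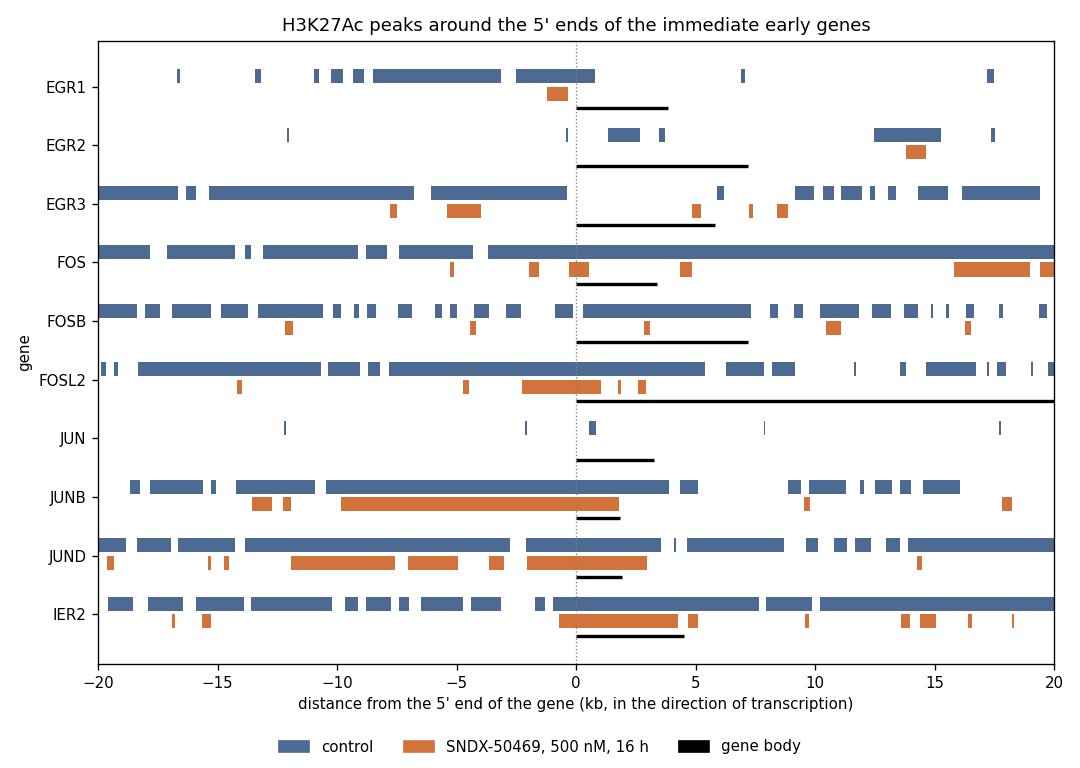
Peaks of the control (blue) and SNDX-50469 (orange) libraries by distance from the 5′ end of each gene (kb, in the direction of transcription), with the gene body in black. Treated peaks cross the 5′ end at FOS, FOSL2, JUNB, JUND and IER2 but not at EGR2, EGR3, FOSB or JUN, and the EGR1 peak stops 344 bp before it.

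At the 5′ ends, the window of 1 kb to either side holds 2001 bp. The window was covered in full in both lists at FOSL2, JUNB and JUND. FOS went from 2001 to 842 bp, EGR1 from 1793 to 657 bp and IER2 from 1957 to 1721 bp. FOSB, EGR3, JUN and EGR2 went from 1493, 604, 281 and 81 bp to 0 bp. The 81 bp of EGR2 are for its outermost start, and at its most downstream start 1112 bp went to 0 bp. A treated peak was thus present at 6 of 10 starts with a control peak, against 49.7% of all genes with a control peak there. The control window was covered in full at 4 of 10 members and at 16.8% of all genes with a known strand. Among windows covered in full in control, 3 of the 4 members and 14.1% of 3295 genes were also covered in full after treatment. Summed, the start windows kept 64.9% for the members and 34.2% for all genes. With every listed RefSeq start in place of the outermost one, the count of members with a treated peak was still 6, here of the 9 genes in the table.

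By distance, the members' treated coverage was highest at the start and lowest on the downstream side. In the 500 bp after the 5′ end, 64.5% of positions were covered in control and 50% after treatment. In the 500 bp before it, these values were 71.2% and 49.3%. Over all genes the same bins had 48.3% and 19.04% after, and 37.7% and 14.9% before. Farther upstream, from 9500 to 5500 bp before the 5′ end, the members' treated coverage was 11.2% to 24.5%, where that of all genes was near 2%. That upstream part came from the long peaks of JUNB and JUND and a short peak of EGR3, and the other members had none there. From 5500 to 7000 bp after the 5′ end the members' treated coverage was 0%. The members' profile averages only 10 genes, and FOSL2, JUNB, JUND, IER2 and FOS supply most of the treated part at the start.

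**Figure D3:**
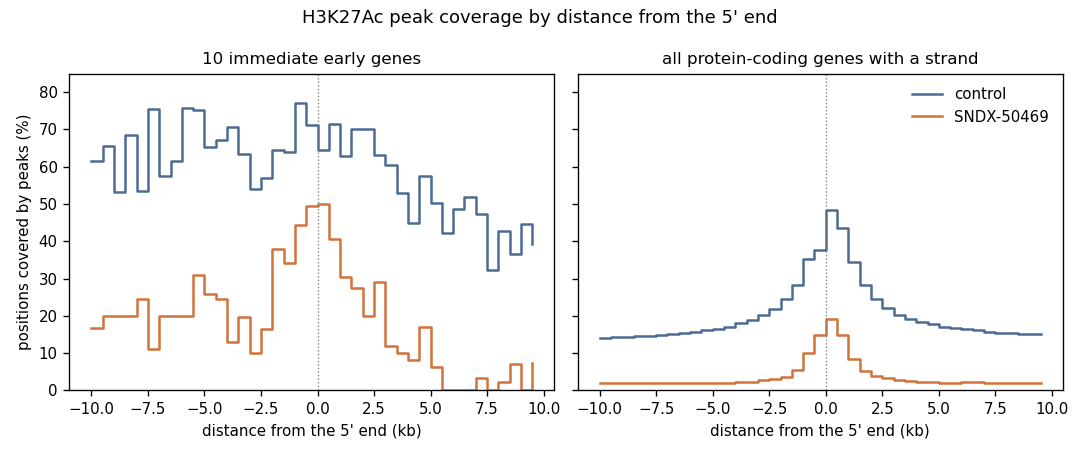
Share of positions covered by peaks (%, vertical axes) in bins of 500 bp by distance from the 5′ end (kb), for the 10 genes (left) and all protein-coding genes with a strand (right), 1 library per line. In the first bin after the 5′ end the members go from 64.5% to 50% and all genes from 48.3% to 19.04%.

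The members differed widely in strength within the control list. In control, the strongest peak over the gene and 5 kb had rank 33 at JUND, 79 at JUNB and 124 at IER2. FOS, EGR1 and FOSL2 followed at 982, 1728 and 3127, and FOSB, EGR2 and EGR3 at 7366, 21331 and 34242. JUN came last at 199407. Across the whole control list, 98.5% of peaks with ranks 1 to 200 shared at least 1 bp with the treated list, and the median such peak kept 73.1% of its length. For ranks 201 to 2000 these values were 94.8% and 47.7%. For ranks 2001 to 20000, 47.0% of peaks were kept and the median length kept was 0%, and for weaker peaks only 4.38% were kept. The strongest peaks of JUND and JUNB kept 64.0% and 80.8%, on both sides of the median of their class, and that of IER2 kept 62.8%. Those of FOS and EGR1 kept 30.0% and 26.2%, below the 47.7% of theirs. FOSL2 and FOSB kept 30.0% and 39.8% of their strongest peaks, where the median of their class was 0%. Their ranks, 3127 and 7366, lie in the stronger part of that class, so its median is a loose mark for them. In the weakest class, where few peaks were kept at all, EGR3 kept 24.5% of its strongest peak, and EGR2 and JUN kept 0%. In the treated list, the strongest peaks came in the order JUND (rank 443), IER2 (689), JUNB (976), EGR1 (2754), FOSL2 (2976), FOS (5026), FOSB (5092) and EGR3 (7854). With 1 library per list, the gaps between neighbours in either order have no error to be read against.

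**Figure D4:**
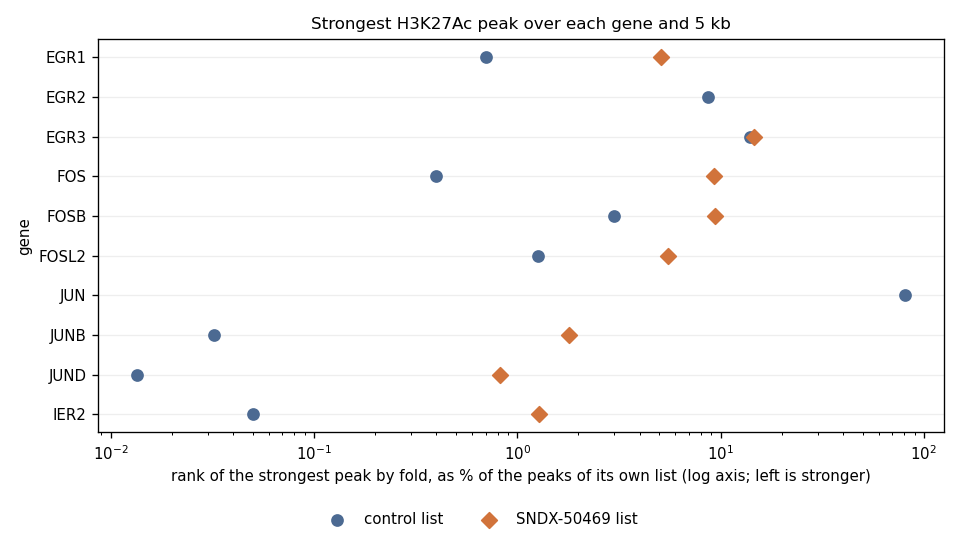
Rank by fold of the strongest peak over each gene and 5 kb, as percent of the peaks in its own list (log axis, left is stronger), for the control and SNDX-50469 lists. JUND, JUNB and IER2 lie farthest left in both lists, and EGR2 and JUN have no treated point.

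Counted as peaks, 13 of 51 control peaks over the 10 genes and 5 kb shared at least 1 bp with the treated list, or 25.5% (Wilson 95% interval 15.5 to 38.9). Over the whole control list this share was 98.5% for ranks 1 to 200 and 94.8% for ranks 201 to 2000. It was 47.0% for ranks 2001 to 20000 and 4.38% for the other 225875 peaks. The interval was computed for the 51 peaks. This interval takes in the error of counting alone, and peaks side by side are not independent of each other. When a peak had to share at least 50% of its length, 7.84% of the 51 were kept. The share of the whole control list at that overlap is not given here, so this value has no background.

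Within 100 kb on both sides, the range that takes in distal elements and other genes, the covered length was again lower at 10 of 10 members, as at 98.6% of 18602 genes with a control peak there. With the trimmed control list, IER2 had 21553 bp treated against 20784 bp control, and EGR2, EGR3 and JUN had treated peaks but 0 bp in control. Some control length was kept at each member, so that 0 of 10 kept none, against 22.3% of all genes. The summed kept share was 15.1%, against 29.4% over the gene and 5 kb. Summed over all genes it was 11.8%. The higher share of the members rests on chromosome 19: its 4 members kept 22.9%, against 15.9% for all genes of that chromosome, and the other 6 kept 7.89%, below the 11.2% of all genes elsewhere. JUNB again kept the most, with 23549 of 57851 bp (40.7%), followed by JUND with 27381 of 123577 bp (22.2%). IER2 kept 18.96% of 105989 bp and FOSB 17.3% of 95460 bp. EGR1, EGR3 and FOS kept 10.2%, 9.88% and 9.60%. FOSL2, with 114387 bp in control, kept 4.68%, EGR2 4.402% and JUN 1.74%. FOSL2 thus went from a start window kept in full to a neighbourhood that kept little, while FOSB kept a larger share at 100 kb than at 5 kb.

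**Figure D5:**
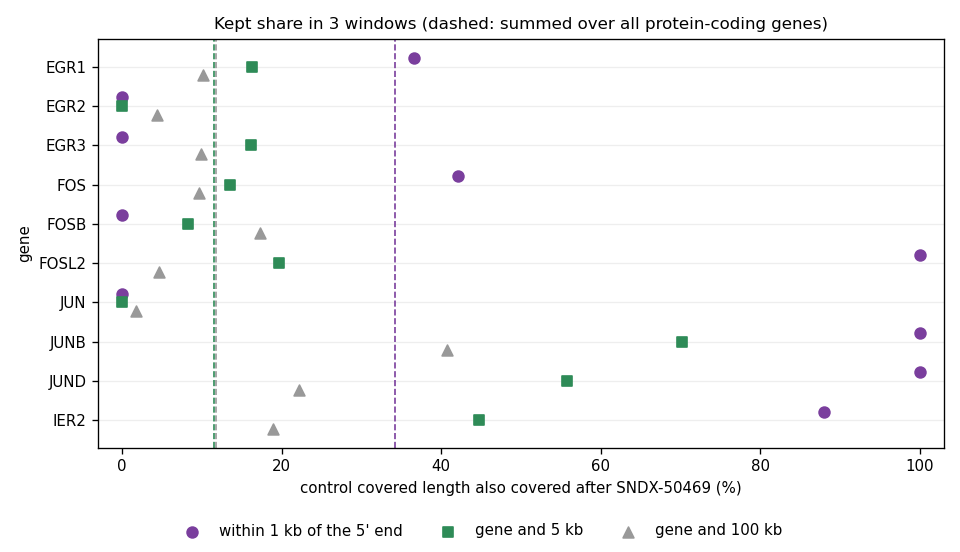
Percent of the control covered length also covered after SNDX-50469 (horizontal axis) for each gene within 1 kb of the 5′ end (circles), over the gene and 5 kb (squares) and over the gene and 100 kb (triangles), with dashed lines at 34.2%, 11.6% and 11.8% for all protein-coding genes summed. FOSL2 spans 100% to 4.68% over the 3 windows, and JUNB lies right of the lines in each of them.

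The wide windows held 670 control peaks, of which 85 shared a base with the treated list, and 176 treated peaks, of which 31 shared none with control. EGR3 had 15 of these 31 and 7122 bp of treated length outside control peaks. Most treated peaks, 151 of 176, lay more than 1 kb from any coding 5′ end. The same counts of peaks over the whole lists are not given here. By length, 23.1% of the treated coverage in these windows lay within 1 kb of coding 5′ ends, against 16.8% over the whole treated list. Near coding 5′ ends 46.6% of the control length was kept, and elsewhere 12.3%. Over the whole lists these shares were 33.1% and 8.11%. For some members the treated peaks of the wide window belonged to the starts of other genes. The only treated peak within 100 kb of EGR2 lay over the start of ADO, 14447 bp from that of EGR2, with a fold of 5.03 and rank 1681. The only treated peak within 100 kb of JUN was 230 bp at MYSM1. Near EGR1, a treated peak covered all 2001 bp around the start of ETF1, 77757 bp away. Near IER2, the start of LYL1, a haematopoietic transcription factor gene 47553 bp away, was covered in full in both lists. FOS had no other coding start in its window, and 17 of its 18 treated peaks lay more than 1 kb from its own.

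Related genes are set beside the shares over all genes given above, of which 98.1% were lower and 44.8% kept none, with a median of 2.37%. Of 19 other immediate early genes, 18 had a control peak over the gene and 5 kb, all 18 were lower, and the median kept share was 13.1%. ZFP36, which encodes an mRNA-destabilising protein, kept 85.8% of 12161 bp and PPP1R15A, a stress-response phosphatase subunit gene, 39.9% of 10977 bp. KLF2 and NR4A1 were among the 5 that kept none. Of 9 AP-1 partner genes, 9 were lower, 2 kept none and the median was 4.46%, with MAFG at 32.4% and ATF2 at 28.9%. Of 9 genes for upstream regulators and EGR corepressors, 9 were lower, 4 kept none and the median was 2.50%, close to the values over all genes. SRF itself kept 9.35% and CREB1 30.0%.

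Genes with a pattern like that of a member were counted in a narrow window, which gives low counts wherever few genes keep that much, so the counts describe the list and do not single out a member. Of 2188 genes with a control covered length within 20% of that of JUNB, 1 had a kept share within 1 percentage point of it. For JUND this number was 7 of 2108 and for IER2 19 of 1974. FOS had 106 such genes of 1871 and EGR1 58 of 1925. At the other end, 680 of 895 genes matched EGR2 and 355 of 363 matched JUN, since most genes with so little control length kept none.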

How the data were processed

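H3K27Ac ChIPmentation peaks of 2 MOLM13 libraries were used, 1 per condition, and 2 input libraries were not. The submitters' processing notes name Trim Galore 0.6.5, Bowtie2 2.3.4.2, Picard 2.9.0, MACS2 2.1.2 and GRCh38, whereas the supplementary methods name TopHat2 and UCSC hg38. Calling options and the use of an input are not given in the sources used here. The lists of broad peaks were deposited separately for each library, not pooled. For each peak the deposited lists give a ratio (fold over background), the −log10 p and −log10 q, and a score, which is 10 times the −log10 q cut to a whole number and was not used. Read totals are not in the files.

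Peaks were merged into covered positions with Python 3.11.15, numpy 2.4.6, pandas 2.3.3, scipy 1.17.1 and matplotlib 3.10.9. Gene bodies were those of 20037 GRCh38.p14 RefSeq protein-coding genes. Strand came from the RefSeq promoter table or, by symbol, from an earlier GENCODE release whose coordinates were not used, and was known for 19666 genes. The kept share gives, in percent, how much of the control covered length treated peaks also cover. A peak was kept if at least 1 bp was shared. With 1 library per condition no test was made. Scripts were tested on simulated peaks.

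The members and gene lists were chosen with earlier results of these data known. All members are named. The value of 1 cell type marker is not reported here. Of each related list, the 2 genes with the highest and the 2 with the lowest kept share among those above 2 kb in control could be named, and SRF was named after its value was seen. Genes with a 5′ end within 100 kb of a member could be named where a peak lay over it. Alternatives were a −log10 q of at least 5, a common −log10 p cutoff, a control list trimmed to the treated length, other windows, a stricter overlap, and leaving out chromosomes 8 or 19. The use of every RefSeq start was added after seeing the data.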

Additional observations from a re-analysis of the deposited data

How the results depend on the processing

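No paired analysis was possible because only 1 library was made for each condition. Of 45 alternative values for the member and related-list summaries, 30 moved by less than the counting interval or 1.5 times and 15 by more. Some of the 15 are counts that fell because a setting left fewer members, such as 6 of 6 lower without chromosome 19. The tally is therefore not a measure of how stable the results are. For the kept shares of length, the counting interval was taken as if they were shares of 51 or 670 peaks. It is a yardstick for these shifts and does not measure the error of a length. With a −log10 q of at least 5, EGR1, FOS, FOSB, FOSL2 and JUNB kept 0%, and the treated JUNB peak has a −log10 q of 4.87. At this level 7 members had a control peak over the gene and 5 kb, 2 of them, JUND and IER2, kept some length, and the summed kept share was 18.2%. The whole control list kept 6.47% of its length at this level. Within 100 kb the members kept 7.02%, near that value, with 3 members keeping some. At the starts 2 of 6 had a treated peak, and 1 of 23 genes of the related lists kept some, against 25 of 36. With the common −log10 p cutoff the 100 kb share was 21.0%, against 15.5% for the whole control list. With the control list trimmed to the treated length, 6 of 6 members with a control peak were lower over the gene and 5 kb and kept 45.8%, while EGR3 and FOSB had treated length alone, and 6 of 7 were lower within 100 kb, all but IER2, and kept 42.8%, where the whole control list kept 38.9%. Requiring 50% of a peak's length gave 7.84% of the 51 control peaks over the gene and 5 kb. Without chromosome 19, 6 of 6 were lower, 4 kept some length and the share was 16.3%. Depth is unknown, and the lists end at different −log10 p, so the length lost to a weaker call and to a weaker mark cannot be told apart. The causes of these shifts were not tested.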
